A study of Mus musculus with 8 samples.

Results

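The Hox genes encode homeodomain transcription factors that sit in 4 clusters in the mouse genome. Members were all genes of the array whose symbol, reached through the transcript accession of a probe, has the form Hoxa, Hoxb, Hoxc or Hoxd followed by a paralog number. This rule gave 39 genes of 19752 with a symbol on the array, of which 38 are described here, and no measured value entered it. By the RefSeq annotation of build GRCm38.p6, the 10 Hoxa genes described lie on chromosome 6 between 52162417 and 52260880, the 10 Hoxb genes on chromosome 11 between 96194316 and 96368254, the 9 Hoxc genes on chromosome 15 between 102921131 and 103036856, and the 9 Hoxd genes on chromosome 2 between 74668225 and 74765142.

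Within a cluster, genes of low paralog number are switched on earlier and reach further towards the head, and genes of high paralog number are switched on later and lie nearer the tail. In the developing nervous system their combined expression marks the position along the hindbrain and spinal cord, while the forebrain and midbrain lack it. Retinoic acid, Wnt, FGF and CDX proteins are known activators, Polycomb complexes keep the clusters silent, and PBX and MEIS proteins bind DNA together with Hox proteins.

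The RNA came from neural stem and progenitor cells derived from mouse embryonic stem cells and kept as floating neurospheres. NFIA is a transcription factor that takes part in the start of glial development. Cells overexpressing it and control cells grew in the same cultures and were parted by fluorescence-activated sorting, and the labels do not name the promoter or clone behind the overexpression. The 4 groups hold 2 arrays each: SNs_NFIA_OE and SNs_CT are NFIA and control cells of secondary neurospheres (passage 1, day 12), and PNs_NFIA_OE and PNs_CT are NFIA and control cells of primary neurospheres (passage 0, day 6). Nothing in the labels says that the arrays of a group came from separate cultures, so p-values measure the spread between these samples, which may be technical.

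The scanner file attached to a sample and the column of the authors' value table with its title hold the same array for 1 of 8 samples, so arrays were named here by the value table, where the best file for a column correlated at 0.9999 or more and the next best at 0.3386 or less. Source names and titles also conflict: the 2 samples with a wild-type source name, PNs_NFIA_OE 1 and SNs_NFIA_OE 2, are titled NFIA, all 4 control samples carry the NFIA OE line in the source name, and groups follow the titles. In the value table's order, secondary arrays lie in row 2 of the single slide and primary arrays in row 1, NFIA arrays in columns 3 and 4 and control arrays in columns 1 and 2, so neither passage nor NFIA can be told apart from position. Well above background were 45.38% to 56.44% of an array's spots. All 10 genes of a list of neural progenitor markers were above background on every array. Nfia was at 1.70 and 1.62 in SNs_NFIA_OE, 1.00 and 0.61 in SNs_CT, -0.24 and 0.93 in PNs_NFIA_OE, and -1.30 and -0.30 in PNs_CT. Over both passages it was 1.00 ± 0.32 higher in NFIA cells, with a limma adjusted p of 0.172 that does not pass 0.05.

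Levels are log2 of the background-subtracted signal minus the array's 75th percentile, so a level of 0 is the 75th percentile, and levels of different genes are not set against each other because probes differ in brightness. Differences are in log2 units ± SE from limma, with adjusted p (Benjamini-Hochberg) over all 13783 genes tested. In bulk RNA of sorted cells, fewer cells that express a gene and less RNA per cell cannot be told apart.

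Of the 38 Hox genes, 4 were well above background on all 8 arrays, 21 on 1 to 7 arrays, and 13 on none. The 4 were Hoxa3 and Hoxb2, which pattern the hindbrain, and Hoxa7 and Hoxc6, which are expressed in the trunk. Paralogs 10 to 13, the genes of the lumbar, sacral and tail regions, had 12 members, and the 2 that were above background on any array, Hoxc11 and Hoxd10, were so on SNs_NFIA_OE 1 alone. A total of 10 genes were above background on 1 array alone, 8 of them on SNs_NFIA_OE 1, Hoxa4 on SNs_CT 2 and Hoxc8 on SNs_CT 1. Hoxa4 was at -2.15 on SNs_CT 2 and between -6.56 and -5.47 on the other arrays.

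The number of Hox genes above background was 23 and 12 on the SNs_NFIA_OE arrays, 12 and 11 on the SNs_CT arrays, 15 and 7 on the PNs_NFIA_OE arrays, and 13 and 7 on the PNs_CT arrays, replicate 1 given first. Replicate 1 had more in every group. SNs_NFIA_OE 1 held the highest count and the highest 75th percentile of the signal, 619.1 against 302.5 to 425.4 on the others, and the part of that brightness in the count was not tested. Of the Hoxd genes, 5 were above background on SNs_NFIA_OE 1, 1 each on SNs_NFIA_OE 2, PNs_NFIA_OE 1 and PNs_CT 1, and 0 on the other arrays.

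**Figure D1:**
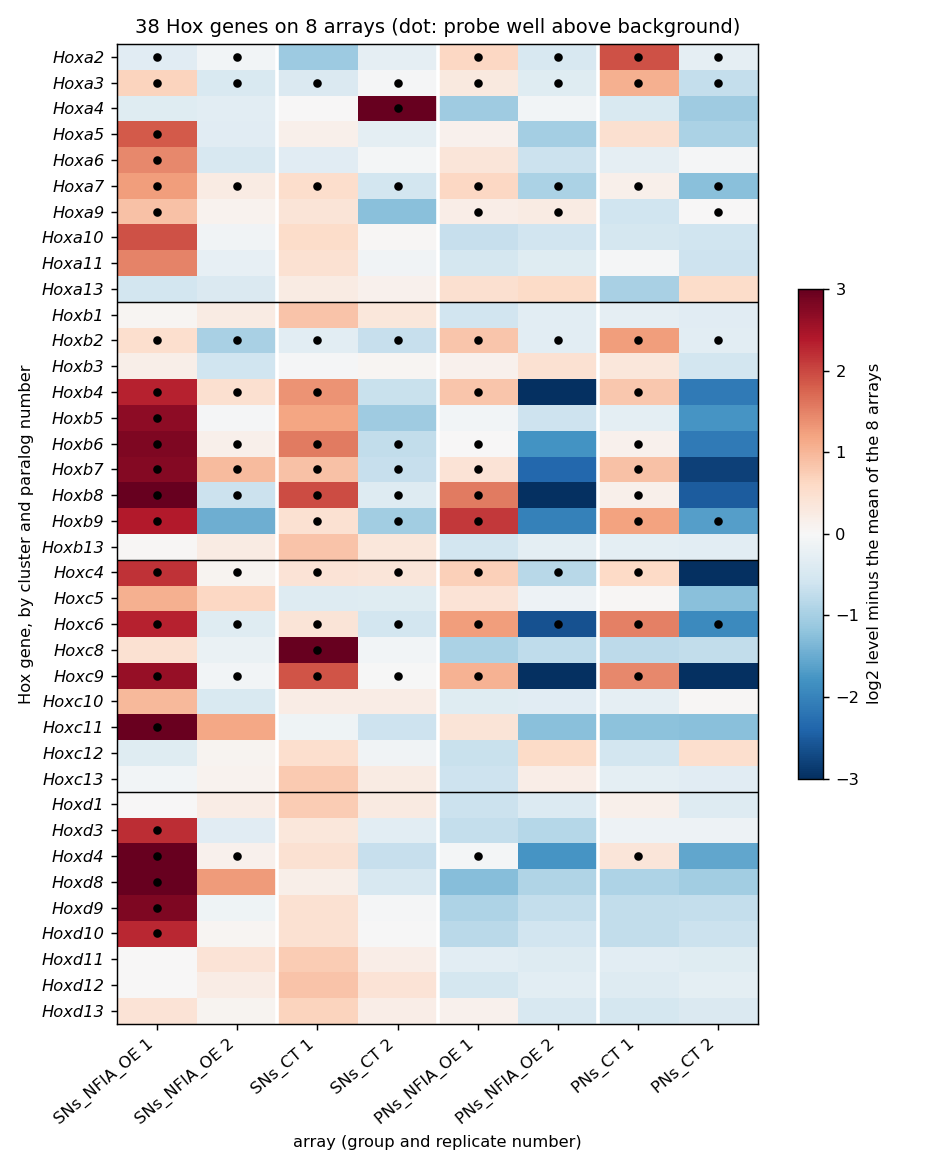
Level of each of the 38 Hox genes (rows, by cluster and paralog number) on the 8 arrays (columns), as log2 minus the gene's mean over the arrays; colours stop at 3 in either direction, and a dot marks a probe well above background. For the 9 tested genes of the Hoxb and Hoxc clusters the columns of replicate 1 are redder than those of replicate 2 in the same group, for Hoxc4 in SNs_CT by only 0.04. The 13 genes above background on no array hold no dot. Levels and dots are those of a gene's brightest probe, so Hoxb3, above background only through its other probe, holds none either.

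A gene entered the tests when some group had it above background on each of its arrays. That left 14 of the 38: Hoxa2, Hoxa3, Hoxa7, Hoxa9, Hoxb2, Hoxb4, Hoxb6, Hoxb7, Hoxb8, Hoxb9, Hoxc4, Hoxc6, Hoxc9 and Hoxd4. The other 24 had levels between -6.80 and -2.13 and are described by their flags.

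The levels of the tested genes of paralogs 4 to 9, except Hoxa9, were split by replicate number within every group, though for Hoxc4 in SNs_CT by only 0.04. Hoxc9, a trunk gene, was at 1.02 and -1.67 in SNs_NFIA_OE, 0.29 and -1.60 in SNs_CT, -0.56 and -5.10 in PNs_NFIA_OE, and -0.16 and -5.00 in PNs_CT. Each replicate 1 lay above each replicate 2, across groups as well as within them. Hoxb8, which is expressed in the trunk spinal cord, was at 0.71 and -2.99 in SNs_NFIA_OE, -0.39 and -2.72 in SNs_CT, -0.77 and -5.54 in PNs_NFIA_OE, and -2.19 and -4.83 in PNs_CT, with the same split.

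Hoxb6 was at 0.19 and -2.46 in SNs_NFIA_OE, -1.06 and -3.35 in SNs_CT, -2.61 and -4.42 in PNs_NFIA_OE, and -2.48 and -4.75 in PNs_CT. Its 4 differences between the numbers stayed between 1.81 and 2.65. Hoxb9 was at 0.15 and -3.69 in SNs_NFIA_OE, -1.76 and -3.26 in SNs_CT, -0.10 and -4.25 in PNs_NFIA_OE, and -1.03 and -3.87 in PNs_CT. Hoxc6 was at 0.87 and -1.80 in SNs_NFIA_OE, -1.06 and -2 in SNs_CT, -0.19 and -4.06 in PNs_NFIA_OE, and 0.07 and -3.36 in PNs_CT. For both genes replicate 1 of every group lay above replicate 2 of every group, and Hoxc6 was above background on all 8 arrays.

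Over the 14 tested genes, 11 were higher in replicate 1 than in replicate 2 in all 4 groups: Hoxa7, Hoxb2, Hoxb4, Hoxb6, Hoxb7, Hoxb8, Hoxb9, Hoxc4, Hoxc6, Hoxc9 and Hoxd4. Among all 13783 genes, 10.3% met the same condition. The opposite, replicate 2 higher in all 4 groups, held for 0 of the 14 and for 6.47% of all genes. By cluster the 11 were 1 of 4 tested Hoxa genes, 6 of 6 Hoxb genes, 3 of 3 Hoxc genes and 1 of 1 Hoxd gene. Among the 24 untested genes, 4 (Hoxa5, Hoxb5, Hoxc11 and Hoxd3) had the same sign in all 4 groups, from signals mostly below background. In PNs_CT the difference was only 0.01 for Hoxc11 and rounds to 0 for Hoxd3. This comparison of numbers was chosen after the levels had been seen, and the labels do not say what a number marks. NFIA and control cells of a passage grew in the same cultures, so the 4 groups are not 4 separate repeats of the comparison. On the slide, number 1 holds columns 1 and 3 and number 2 columns 2 and 4.

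The mean difference over the 4 groups, replicate 1 minus replicate 2, was 3.49 for Hoxc9, 3.36 for Hoxb8, 3.08 for Hoxb9, 2.73 for Hoxc6, 2.65 for Hoxb4, 2.45 for Hoxb7 and 2.25 for Hoxb6. Hoxc4 and Hoxd4 differed by 1.95, Hoxa7 by 1.26 and Hoxb2 by 1.15. For the remaining 3 it was 0.79 for Hoxa3, 0.55 for Hoxa2 and 0.44 for Hoxa9. Along the paralog order, the 3 described genes of paralogs 1 to 3 that were tested had means between 0.55 and 1.15 with a median of 0.79, and the 11 of paralogs 4 to 9 had means between 0.44 and 3.49 with a median of 2.45. The low paralogs were Hoxa2, Hoxa3 and Hoxb2, and the tested Hoxa genes of higher number, Hoxa7 and Hoxa9, were at 1.26 and 0.44. The part of the cluster in this order was not tested. Hoxa9 is the exception among the higher paralogs, with differences between -0.61 and 1.65 on its brightest probe. Its other probe, above background on SNs_NFIA_OE 1 alone, was higher in replicate 1 in every group but PNs_CT. That probe was at -2.29 and -5.69 in SNs_NFIA_OE, -4.81 and -5.86 in SNs_CT, -5.12 and -6.51 in PNs_NFIA_OE, and -5.82 and -4.87 in PNs_CT.

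In a limma fit with replicate number as a term, 0 of 13783 genes passed an adjusted p of 0.05. At an unadjusted p under 0.05, 11 of the 14 Hox genes were higher in number 1, against 3.05% of all genes in that direction and 6.64% in either direction. Hoxb6 had the smallest p of all genes, with an adjusted p of 0.232 (2.25 ± 0.20). This fit takes the 4 groups as independent, but differences between numbers correlated over all genes at 0.484 and 0.446 between groups of 1 passage. SE and p for replicate number, here and below, may therefore be too small. Signals near background limit the size of these differences: on both replicate 2 arrays of primary neurospheres, Hoxb4, Hoxb6, Hoxb7, Hoxb8, Hoxc9 and Hoxd4, 6 of the 14, were not well above background. Hoxa7, Hoxb2 and Hoxc6 were above background on all 8 arrays and had the split. With each scanner file left with the sample it is attached to, 0 of the 14 had it, against 7.61% of all genes.

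**Figure D2:**
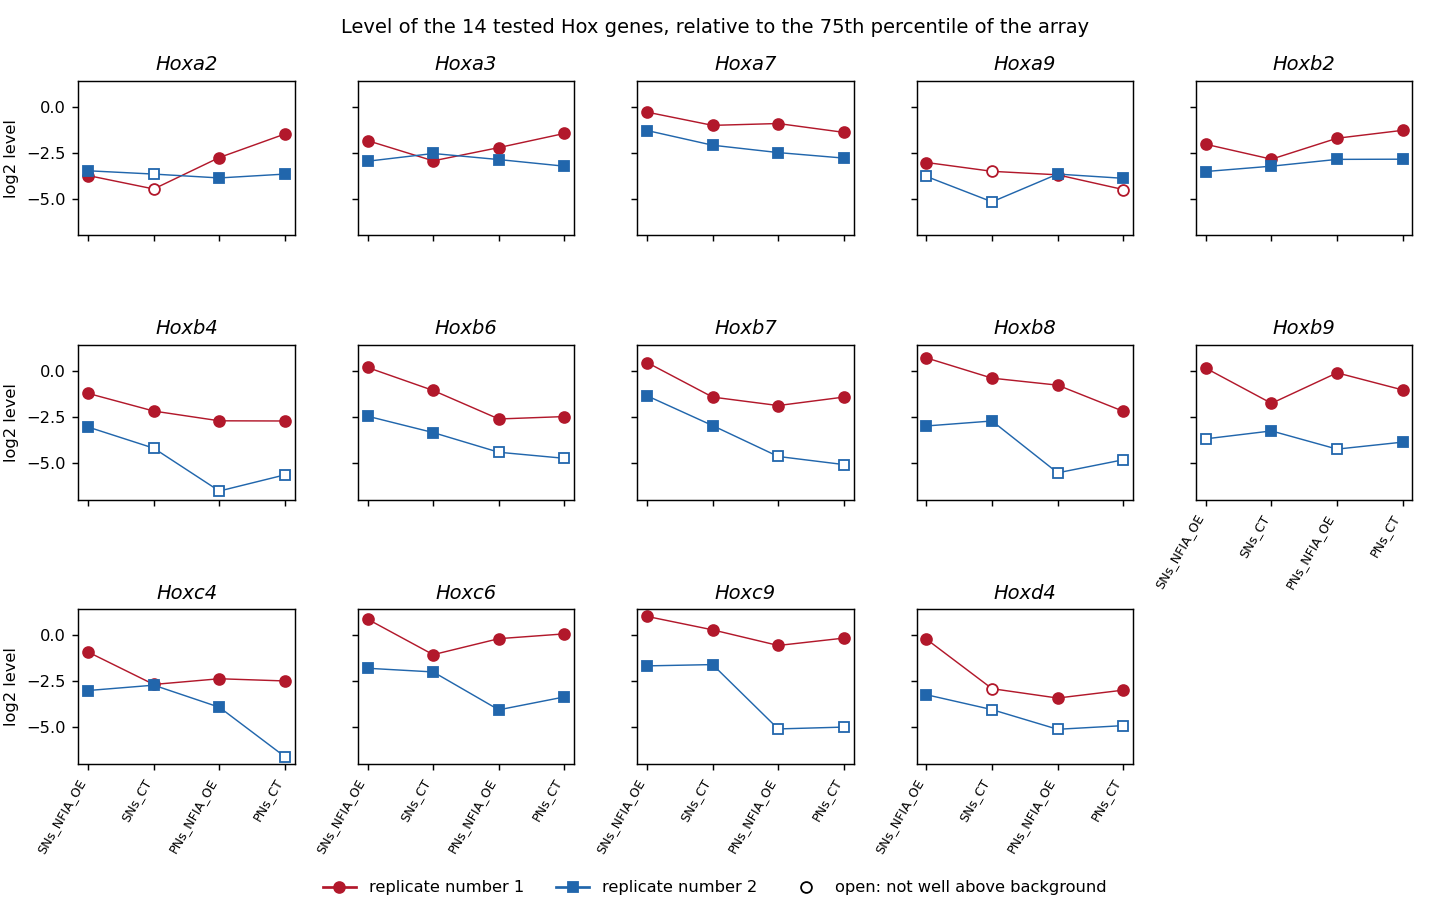
Log2 level of the 14 tested Hox genes in the 4 groups, with replicate 1 as red circles and replicate 2 as blue squares; open symbols are not well above background, and lines join arrays of equal number only to guide the eye. The red line stays above the blue one for 11 genes, from Hoxa7 and Hoxb2 to Hoxd4, and crosses it for Hoxa2, Hoxa3 and Hoxa9.

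**Figure D3:**
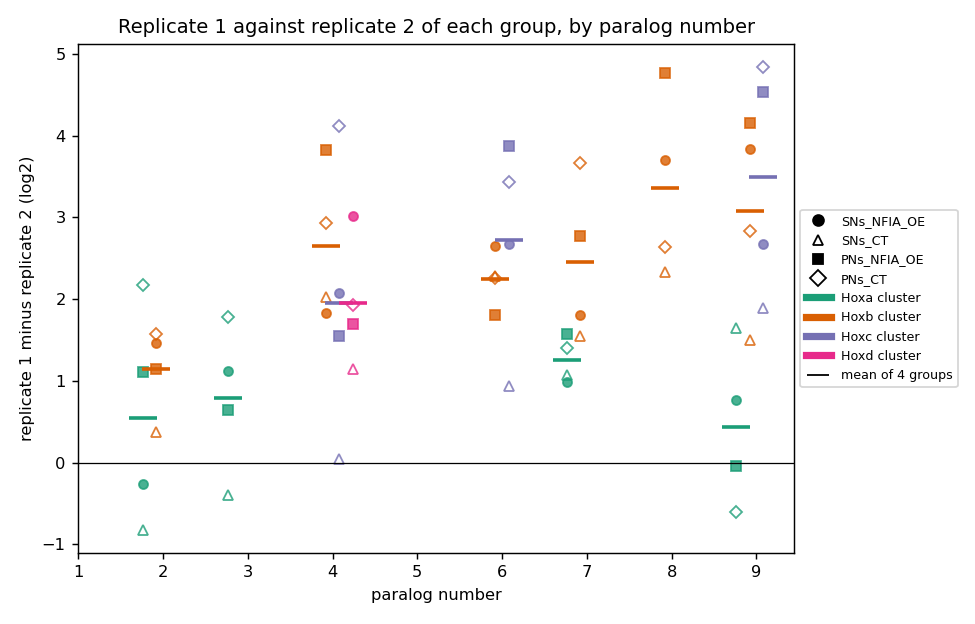
Difference in log2 level between replicate 1 and replicate 2 of each group (y axis) against paralog number (x axis), with a horizontal bar for the mean of the 4 groups. Means of paralogs 1 to 3 (Hoxa2, Hoxa3 and Hoxb2) lie between 0.55 and 1.15, and 10 of the 11 means of paralogs 4 to 9 lie above that range, with Hoxa9 at 0.44 below it.

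Other genes that moved with replicate number were picked from the fixed lists after their values were seen. Pbx3, a cofactor that binds DNA with Hox proteins, was 0.85 ± 0.17 higher in number 1 (adjusted p 0.433). Olig2, a factor of motor neuron and oligodendrocyte progenitors, was 1.60 ± 0.22 lower in number 1 (limma adjusted p 0.28): it was at 1.94 and 3.47 in SNs_NFIA_OE, 0.53 and 2.46 in SNs_CT, -1.59 and 0.33 in PNs_NFIA_OE, and -0.77 and 0.25 in PNs_CT. Sox10, a factor of neural crest and oligodendrocyte cells, was at -0.60 and 3.08 in SNs_NFIA_OE, -0.36 and 3.88 in SNs_CT, -3.09 and -2.10 in PNs_NFIA_OE, and -3.22 and -2.71 in PNs_CT. In every group Olig2 and Sox10 were lower where the 11 Hox genes were higher, but the lists that hold them did not share that direction: the median difference, number 1 minus number 2, was 0.55 for the other hindbrain and cord factors and 0.43 for the neural crest list, beside 0.81 for the forebrain and midbrain factors and 0.04 for all genes. Of the 8 genes on the neural crest list 5 to 7 were above background on an array, and of the 16 on the mesoderm list 12 to 14. None of the genes in the lists passed the adjusted test for number, and the part of these cell types in the Hox levels was not tested.

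The promoters of Hoxb4, Hoxc4, Hoxd4 and Hoxb8 are given because these are paralogs of 1 number in 3 clusters and the gene with the second largest split. Each is the 250 bases before the start of 1 RefSeq transcript, 5′ to 3′, in GRCm38.p6. That start is the gene's annotated start for Hoxb4 and Hoxd4 and lies inside the annotated gene for Hoxc4 and Hoxb8, which begin at bases 103018097 and 96279401; of the 11 genes with the split, 5 had an entry. Capitals mark a TATA box (TATAAA, either strand), a CCAAT box (CCAAT) and a CDX motif (TTTATGG), searched on both strands.
Hoxb4 (chr11:96318017-96318266, plus strand): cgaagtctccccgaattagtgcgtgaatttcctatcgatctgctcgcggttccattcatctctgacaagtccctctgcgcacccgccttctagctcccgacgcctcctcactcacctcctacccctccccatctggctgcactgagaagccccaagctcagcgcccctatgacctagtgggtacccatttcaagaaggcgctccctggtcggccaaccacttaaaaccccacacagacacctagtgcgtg
Hoxc4 (chr15:103034145-103034394, plus strand): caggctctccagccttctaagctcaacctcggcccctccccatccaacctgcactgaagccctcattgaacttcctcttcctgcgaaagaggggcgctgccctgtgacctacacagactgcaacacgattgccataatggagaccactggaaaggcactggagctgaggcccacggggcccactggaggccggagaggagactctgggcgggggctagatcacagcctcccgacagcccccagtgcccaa
Hoxd4 (chr2:74721728-74721977, plus strand): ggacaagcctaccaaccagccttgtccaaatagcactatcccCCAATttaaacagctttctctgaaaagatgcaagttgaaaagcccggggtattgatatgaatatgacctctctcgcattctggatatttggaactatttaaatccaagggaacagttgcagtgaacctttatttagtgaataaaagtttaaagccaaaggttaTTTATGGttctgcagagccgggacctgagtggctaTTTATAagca
Hoxb8 (chr11:96281655-96281904, plus strand): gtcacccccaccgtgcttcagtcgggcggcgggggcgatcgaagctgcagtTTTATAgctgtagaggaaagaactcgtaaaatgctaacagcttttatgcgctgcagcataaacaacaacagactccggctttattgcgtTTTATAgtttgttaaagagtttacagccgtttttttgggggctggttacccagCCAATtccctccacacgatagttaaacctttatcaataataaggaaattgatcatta
The 250 bases of Hoxb4 and Hoxc4 hold no capital, Hoxd4 holds all 3 motifs, and Hoxb8 holds the TATA box at 2 places and a CCAAT box. Hoxd4 has 40.4% G and C, Hoxb8 44.4%, Hoxb4 58.0% and Hoxc4 62.0%, with a median of 52.4% over all 32851 promoters of the table. TATAAA occurred in 12.4% of those promoters, CCAAT in 33.8% and TTTATGG in 2.43%. TTGGCA, letters that NFI proteins bind, occurred in 12.3% of all promoters and in 0 of the 5. At that share, 0 of 5 does not show that these promoters lack such letters more than others do.

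None of the Hox genes described passed the limma test between NFIA and control cells in the fit without a replicate block, and the fit with a block within each passage, given after it, called 1, Hoxb7 in secondary neurospheres. Over both passages 0 of 14 were called, against 1.97% of all genes, and 0 had an unadjusted p under 0.05, against 17.7%. The members' differences ran from -0.14 to 1.07, and 13 of 14 were positive, against 44.6% of all genes. The median of the 14 was 0.44 beside -0.05 over all genes. Like the count of signs, it is partly set by the filter. Hoxa9, Hoxb4 and Hoxd4 entered the tests only through NFIA groups, and Hoxb9 only through control groups. That median has no settled sign: it was between -0.21 and 1.13 when 1 array was left out, below 0 in 3 of those 8 fits (without SNs_NFIA_OE replicate 1, PNs_NFIA_OE replicate 1 or PNs_CT replicate 2), -0.28 with the scanner files as attached, and -0.49 by the source names. Hoxa9, a trunk gene, had the smallest p of the 14: it was at -3.03 and -3.79 in SNs_NFIA_OE, -3.51 and -5.17 in SNs_CT, -3.70 and -3.66 in PNs_NFIA_OE, and -4.50 and -3.89 in PNs_CT. The secondary groups overlapped, and both PNs_NFIA_OE arrays lay above both PNs_CT arrays. Hoxa9 entered the tests only through PNs_NFIA_OE, so that order is not independent of the filter. On the other, dimmer Hoxa9 probe the primary groups overlapped, at -5.12 and -6.51 against -5.82 and -4.87, none well above background. On the tested probe, Hoxa9 differed over both passages by 0.72 ± 0.38, with a limma adjusted p of 0.375. It was above background on 3 of the NFIA arrays and on PNs_CT 2 alone of the control arrays, and the difference was 0.13 with normexp background correction, 0.35 without SNs_CT replicate 2, and -0.21 by the source names and with the scanner files as attached.

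Hoxc4, expressed in the posterior hindbrain and cervical cord, was at -0.92 and -3.01 in SNs_NFIA_OE, -2.68 and -2.72 in SNs_CT, -2.37 and -3.92 in PNs_NFIA_OE, and -2.49 and -6.61 in PNs_CT. NFIA and control arrays overlapped in both passages, and the difference was 1.07 ± 0.89 (adjusted p 0.59), or 0.18 without PNs_CT replicate 2. Hoxa7 differed by 0.58 ± 0.48 (adjusted p 0.594). All 4 NFIA arrays lay above all 4 control arrays for 0 of 14 genes, against 3.68% of all genes, and below them for 0 of 14, against 2.25%. Within pairs of equal number and passage, NFIA was above control in all 4 pairs for 2 of 14 genes (Hoxa7 and Hoxa9), against 15% of all genes, and below it in all 4 for 0 of 14, against 19.9%.

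In secondary neurospheres 0 of 14 were called, against 0.936% of all genes, and 0 had an unadjusted p under 0.05, against 15.1%. All 14 differences were positive, against 48.5% of all genes, with a median of 0.75 beside -0.02 over all genes. Hoxb4 and Hoxd4 entered the tests only through SNs_NFIA_OE, the higher side, and Hoxb9 only through control groups. The count of signs and the median are therefore partly set by the filter. That median ran from -0.24, without SNs_NFIA_OE replicate 1, to 1.88 when 1 array was left out. Hoxd4, expressed in the posterior hindbrain, was at -0.22 and -3.24 in SNs_NFIA_OE and at -2.91 and -4.05 in SNs_CT, where neither array was above background. It entered the tests only through SNs_NFIA_OE. The fitted difference was 1.75 ± 1.12 with a limma adjusted p of 0.533, it was 0.24 without SNs_NFIA_OE replicate 1, and the level of replicate 2 of SNs_NFIA_OE lies between the SNs_CT levels. Hoxb7 differed by 1.75 ± 1.40 (adjusted p 0.624). Hoxa9 was above background on SNs_NFIA_OE 1 alone of the secondary arrays, and its fitted difference of 0.93 ± 0.56 (adjusted p 0.499) was 0.08 with normexp background correction and 0.10 without SNs_CT replicate 2.

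Because NFIA and control cells were sorted from shared cultures and equal numbers within a passage deviated together, the comparison was also fitted with replicate number as a block within each passage. With this block 1 of the 14 was called in secondary neurospheres, against 4.74% of all genes: Hoxb7 was higher in SNs_NFIA_OE by 1.75 ± 0.28 (limma adjusted p 0.0458). At an unadjusted p under 0.05 this block had 6 of 14 there, against 24.8% of all genes, 2 of 14 over both passages, against 23.6%, and 0 of 14 in primary neurospheres, against 18.1%. Hoxb7, a trunk gene, was at 0.46 and -1.35 in SNs_NFIA_OE and at -1.42 and -2.97 in SNs_CT, so the groups overlap while the 2 arrays of each number differ by 1.88 and 1.62. In the other comparisons this block called 0 of 14, against 2.55% of all genes for NFIA over both passages, 0.501% for NFIA in primary neurospheres, 0.385% for passage over both cell types, 1.60% for passage in NFIA cells, 0.667% for passage in control cells and 0% for the difference between passages. Within equal numbers NFIA was above control in both secondary pairs for 8 of 14 genes, against 31.2% of all genes. Hoxb4 and Hoxd4, which entered the tests only through SNs_NFIA_OE, are among these 8.

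In primary neurospheres 0 of 14 were called, against 0.312% of all genes, and 0 had an unadjusted p under 0.05, against 9.56%. Of the 14 differences 6 were positive, and their median of -0.11 turned with single arrays: it was -1.23 without PNs_NFIA_OE replicate 1, 1.28 without PNs_NFIA_OE replicate 2, 1.16 without PNs_CT replicate 1 and -1.12 without PNs_CT replicate 2. Hoxc4 differed by 1.40 ± 1.32 between PNs_NFIA_OE and PNs_CT (limma adjusted p 0.793), Hoxa2 by -0.75 ± 0.72 (adjusted p 0.798) and Hoxa9 by 0.52 ± 0.56 (adjusted p 0.817). Hoxa9 entered the tests only through PNs_NFIA_OE. Hoxa2, which patterns the anterior hindbrain, was at -2.76 and -3.87 in PNs_NFIA_OE and at -1.48 and -3.66 in PNs_CT, and the groups overlap. The sign of Hoxc4 turned to -0.66 without PNs_CT replicate 2, and that of Hoxa2 to 0.34 without PNs_CT replicate 1. NFIA was above control in both primary pairs for 3 of 14 genes, against 31.1% of all genes.

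A test of whether NFIA acted differently in secondary and primary neurospheres called 0 of 14 Hox genes and 0 of 13783 genes in limma, with 931 genes (6.75%) and 0 Hox genes at an unadjusted p under 0.05. It was 2.06 ± 1.59 for Hoxd4 (adjusted p 0.936), 1.21 ± 1.02 for Hoxa2 (adjusted p 0.947) and 1.76 ± 1.98 for Hoxb7 (adjusted p 0.965). With a block within each passage, 5 of 14 had an unadjusted limma p under 0.05 (Hoxa2, Hoxb4, Hoxb6, Hoxb7 and Hoxd4). The share of all genes at that threshold is not given, and 0 of 14 passed the adjusted test. An effect of NFIA on Hox genes that differs between secondary and primary neurospheres was not shown.

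**Figure D4:**
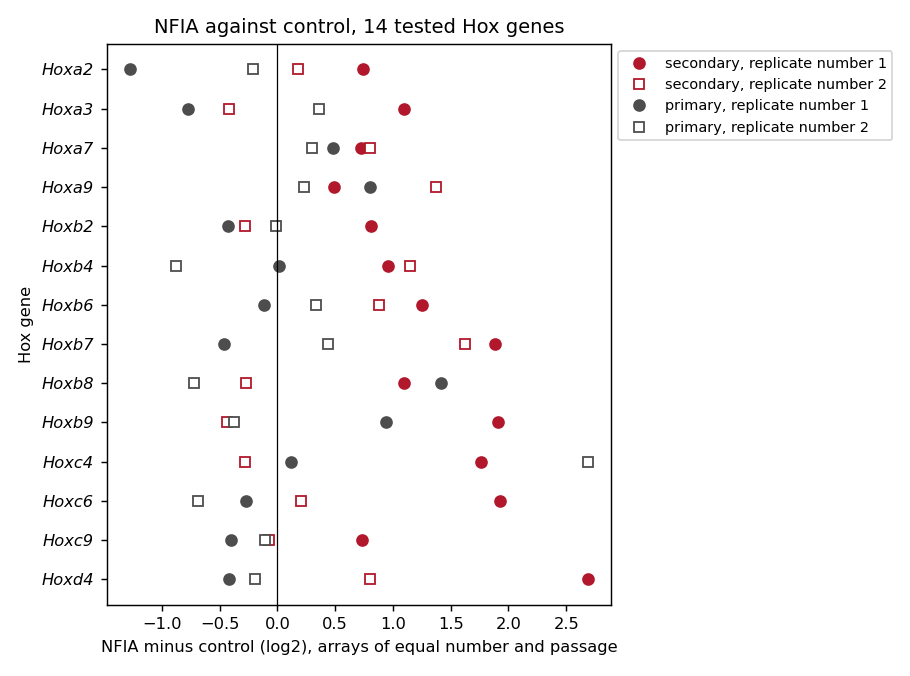
NFIA minus control in log2 (x axis) for the 14 tested Hox genes (y axis), within arrays of equal number and passage; red symbols are secondary and grey symbols primary neurospheres, filled for number 1 and open for number 2. Hoxa7 and Hoxa9 are positive in all 4 pairs, between 0.23 and 1.37, and the other 12 have pairs on both sides of 0.

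Between secondary and primary neurospheres 0 of 14 Hox genes were called over both cell types, against 7.31% of all genes. All 4 secondary arrays lay above all 4 primary arrays for 0 of 14, against 4.43% of all genes, and the reverse also held for 0 of 14, against 8.02%. Hoxb6 differed by 1.89 ± 0.84 (limma adjusted p 0.203), Hoxb7 by 1.94 ± 0.99 (adjusted p 0.259) and Hoxd4 by 1.51 ± 0.84 (adjusted p 0.296). The secondary and primary levels of Hoxb7 overlapped: replicate 2 was at -1.35 in SNs_NFIA_OE and -2.97 in SNs_CT, while replicate 1 was at -1.88 in PNs_NFIA_OE and -1.42 in PNs_CT. At an unadjusted p under 0.05 there were 0 Hox genes, against 26.3% of all genes. Of the 14, 6 entered the tests only through secondary groups, the side with the higher mean: Hoxb4, Hoxb6, Hoxb7, Hoxb8, Hoxc9 and Hoxd4. Hoxa9 entered only through PNs_NFIA_OE. The median difference of the 14 was 1.20, beside -0.08 over all genes, and is partly set by this filter. It was 0.50 with normexp background correction and between 0.55, without PNs_CT replicate 2, and 1.92, without PNs_CT replicate 1, when 1 array was left out, and 0.60 without SNs_NFIA_OE replicate 1 or PNs_NFIA_OE replicate 2. Some genes on marker lists of other cell types were called between passages, in the fit without a replicate block. With a block within each passage, 0.385% of all genes were called over both cell types in place of 7.31%. Calls of list genes with that block are not given. Of 13 tested genes on the mesoderm and mesenchyme list, 3 rose in secondary cells (Pdgfra, Col1a1 and Col3a1, by 2.78 to 3.72) and 1 fell (Tcf15, limma adjusted p 0.0291); the mean level of the list was 0.18 and 0.03 in SNs_NFIA_OE, 0.24 and 0.64 in SNs_CT, -0.18 and -0.28 in PNs_NFIA_OE, and -1.23 and -2.14 in PNs_CT. On the neural crest list 2 of 7 rose (Sox10 and Ets1) and 1 fell (Tfap2b), and Pax6, a neural progenitor gene, fell by 2.15 (limma adjusted p 0.016). Of the 9 genes on the pluripotent cell list, all tested, Esrrb fell in secondary cells over both cell types (by 1.72, limma adjusted p 0.0331). Within NFIA cells 5 of the 9 fell between passages (Zfp42, Dppa5a, Esrrb, Fgf4 and Utf1), with a list median of -2.51 beside -0.05 over all genes, and within control cells 0 were called, with a list median of 0.34. Fgf4 was also lower in SNs_NFIA_OE than in SNs_CT, by -2.30 (limma adjusted p 0.0346). Between NFIA and control cells over both passages Prrx1 and Acta2 of the mesoderm list and Sox7 of the endoderm list rose, by 1.88, 1.69 and 2.64. Sox7 was at -5.30 and -5.89 in SNs_CT and at -6.19 and -6.35 in PNs_CT, low levels that limit the size of its difference. Of the 9 genes on the endoderm list 5 were tested. The part of these list genes in the Hox levels was not tested.

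Within NFIA cells 0 of 14 were called, against 1.89% of all genes, and 0 had an unadjusted p under 0.05, against 21.2%. Between SNs_NFIA_OE and PNs_NFIA_OE, Hoxd4 differed by 2.54 ± 1.12 (limma adjusted p 0.253), Hoxb7 by 2.82 ± 1.40 (adjusted p 0.304) and Hoxb6 by 2.37 ± 1.23 (adjusted p 0.323). Hoxd4, Hoxb7 and Hoxb6 entered the tests only through secondary groups, the higher side. Within control cells 0 of 14 were called, against 0.863% of all genes, and 0 had an unadjusted p under 0.05, against 13.5%. Between SNs_CT and PNs_CT, Hoxa2 differed by -1.50 ± 0.72 (limma adjusted p 0.424), Hoxb2 by -0.98 ± 0.69 (adjusted p 0.592) and Hoxc4 by 1.84 ± 1.32 (adjusted p 0.596). Hoxa2 was not above background on either SNs_CT array, where it was at -4.47 and -3.66, against -1.48 and -3.66 in PNs_CT, and the difference was -0.41 without PNs_CT replicate 1. That of Hoxc4 turned to -0.22 without PNs_CT replicate 2.

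Transcripts of the clusters that are not Hox genes were few. Hoxa11os, a long non-coding RNA antisense to Hoxa11, was above background on all 4 NFIA arrays and on no control array: it was at -1.32 and -3.18 in SNs_NFIA_OE, -3.93 and -3.78 in SNs_CT, -3.71 and -3.42 in PNs_NFIA_OE, and -4.15 and -4.68 in PNs_CT. It entered the tests only through the NFIA groups, its highest level was on SNs_NFIA_OE 1, and the fitted difference over both passages was 1.22 ± 0.40 with a limma adjusted p of 0.178, which misses 0.05. Hoxa11 itself was not above background on any array. Hoxd3os1 was above background on 0 arrays.

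Of the 9 TALE cofactors, which bind with Hox proteins, all 9 were tested. The fit without a replicate block, which gave all list results below, called 1 between passages over both cell types, against 7.31% of all genes. With a block within each passage that share of all genes was 0.385%. Between NFIA and control over both passages the fit without a block called 0, against 1.97%. Pbx2 was lower in secondary cells by -1.24 ± 0.20 (limma adjusted p 0.0201) and differed by -0.62 ± 0.20 between NFIA and control (adjusted p 0.164). Meis1 differed by 0.46 ± 0.23 between passages (adjusted p 0.257) and by 0.89 ± 0.23 between NFIA and control (adjusted p 0.114). Of the 13 upstream activators 8 were tested, and Cdx1, Cdx2 and Cdx4, the CDX activators, were among the 5 that were too dim. Aldh1a2, an enzyme that makes retinoic acid, rose in secondary control cells by 2.82 ± 0.41 (adjusted p 0.0398), the 1 call on this list, and differed by 1.71 ± 0.48 over both cell types (adjusted p 0.0699). Fgf8, a signal of the FGF family, differed by -1.31 between NFIA and control and by -1.30 between passages (adjusted p 0.147 and 0.0842), and Rara, a retinoic acid receptor, by 0.97 between NFIA and control (adjusted p 0.156). Of the 9 direct retinoic acid targets 7 were tested and 0 called: Dhrs3, which lowers retinoic acid levels, differed by 2.71 ± 0.60 between NFIA and control (adjusted p 0.0729) and Cyp26b1, which degrades retinoic acid, by -1.96 ± 0.51 between passages (adjusted p 0.0601). Cyp26a1, another degrading enzyme, differed by -2.40 between passages (adjusted p 0.13).

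Of the 24 Polycomb and Trithorax regulators 22 were tested and 1 was called between passages over both cell types, against 7.31% of all genes: Ezh2, the enzyme that methylates histone H3 in Polycomb silencing, was lower in secondary cells by -0.92 ± 0.19 (limma adjusted p 0.0328). Ring1 differed by -0.99 between passages (adjusted p 0.0532), and Phc1 and Mtf2 by -0.75 and -0.48 between NFIA and control (adjusted p 0.171 and 0.199); all 3 are Polycomb proteins. Of 16 neighbours of the clusters 11 were tested and 0 called; Skap2, next to the Hoxa cluster, differed by 1.67 ± 0.39 between NFIA and control (adjusted p 0.0832), and Lnpk, next to the Hoxd cluster, by -0.99 ± 0.26 between passages (adjusted p 0.0573). Skap1, next to the Hoxb cluster, differed by -1.40 between NFIA and control (adjusted p 0.128), and Evx1, next to the Hoxa cluster, by -1.50 between passages (adjusted p 0.0646). Of the 10 forebrain and midbrain factors, 8 were tested, and Lhx2 was lower in secondary cells by -2.57 ± 0.54 (adjusted p 0.0349) and differed by -0.71 between NFIA and control (adjusted p 0.556). Emx2, a forebrain factor, differed by -1.44 between passages (adjusted p 0.108). Of the 14 other hindbrain and cord factors, 12 were tested, and Pax8 was lower in secondary cells by -2.21 ± 0.46 (adjusted p 0.0345) and differed by 1.80 between NFIA and control (adjusted p 0.107). Lhx1, a factor of interneurons, differed by -1.90 between passages (adjusted p 0.0573). Otx2, which marks the forebrain and midbrain, differed by -0.38 ± 0.35 between NFIA and control (adjusted p 0.631).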

How the data were processed

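Per the labels, RNA of sorted cells was Cy3-labelled with a low-input kit and put on 1-colour Agilent arrays. Spot intensity in the deposited files was background-subtracted by Feature Extraction 10.5.1.1, per the file headers; the submitters' processing notes name version 10.7.3.1. Per the file headers they also hold flags of other kinds, 0 or 1 per spot. The authors' value table holds log2 values that, by comparison with the scanner signals, were scaled to each array's 75th percentile and centred on each probe's median (largest absolute median 0.000245).

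Each array's 75th percentile was subtracted from the log2 processed signals. A probe was kept if some group had it well above background on each of its arrays; 126 probes with outlier flags were left out, and the brightest kept probe stood for a gene. Symbols came through the transcript accession, for 26056 of 55681 probes. The tests used limma 3.58.1 (R 4.3.3). An additive model gave NFIA and passage over all 8 arrays, and a model of 4 group means gave the other 5 comparisons; the code was tested on simulated data. Arrays follow the value table, and each column was matched to a scanner file by correlation. Spots that were saturated numbered 0. The number of arrays limits the precision.

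Replicate numbers are those of the titles. The design text says that both cell types came from mixed cultures. The differences between numbers correlated over 13783 genes at 0.484 between SNs_NFIA_OE and SNs_CT and at 0.446 between PNs_NFIA_OE and PNs_CT, and at -0.188 to 0.042 between passages, so equal numbers were taken as pairs within a passage only. Full statistics are given for Hox genes past the test and the 3 with the smallest p in each comparison. For the lists on cofactors, activators, targets, regulators, neighbours and axial position, genes past the test are named, and so are the 2 with the smallest p in each comparison over all 8 arrays. Some genes that meet these rules are not reported here, and counts of Hox genes leave them out. The members and lists were chosen with earlier results of these data known. Alternatives covered the normalization, background correction (normexp with offset 50 on the median spot signal, since the mean signal planned for it was not used here), dim-probe filter, probe choice, value table, file assignment, source-name groups, block and single arrays left out.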

Additional observations from a re-analysis of the deposited data

How the results depend on the processing

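The count of Hox genes past the test was 0 in each of the 7 comparisons. Of 119 alternative values of the counts, the replicate number pattern included, 115 stayed within 1.5 times the count reported and 4 did not. Leaving out each array in turn gave 56 values, from 0 to 0, and a count already at 0 does not show how far the levels rest on 1 array. The median difference of the 14 genes, in the same fits, ran from -0.21 to 1.13 for NFIA over both passages, -0.24 to 1.88 in secondary and -1.23 to 1.28 in primary neurospheres, and for passage from 0.55 to 1.92 over both cell types, 0.18 to 2.88 in NFIA cells and -0.49 to 1.64 in control cells. The replicate block within each passage gave 1 in secondary neurospheres (Hoxb7). A replicate block over all 4 groups was chosen after seeing the data, although numbers share only a number between passages. It gave 3 for secondary against primary over both cell types (Hoxb6, Hoxb8 and Hoxc9, among 1112 genes, 8.07% of all). In NFIA cells it gave 1 (Hoxb6, among 346 genes, 2.51% of all). Hoxb6, Hoxb8 and Hoxc9 entered the tests only through secondary groups, the higher side. The block changed no other call. Crossing the numbers between passages in control cells, also added after seeing the data, gave 0. With the scanner files as attached, the genes higher in replicate 1 in all 4 groups numbered 0 in place of 11. The cause of these changes was not tested. By the source names, the difference between NFIA and control over both passages was -0.54 for Hoxc4, -0.58 for Hoxa7 and -0.21 for Hoxa9. Of 13783 genes 0 were then called, against 271 by the titles. Dim signal is a limit: 24 of 38 Hox genes were not tested, and levels near background have no reliable order.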
